A study of Mus musculus with 14 samples.

Results

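The genes described here are the Wnt ligands, their Frizzled and Lrp receptors and the secreted and intracellular modulators of Wnt signalling that the deposited table of normalized counts lists by name. They were chosen by gene symbol: Wnt, Fzd, Sfrp, Dkk and Rspo genes, with Axin2, Lef1, Lrp5, Lrp6, Frzb and Notum. The rule found 42 of the 16181 genes of that table, namely 15 Wnt ligands, 4 R-spondins, 10 Frizzled receptors, 2 co-receptors, 3 Dkk antagonists, 5 decoys of the Sfrp family and 3 feedback or transcription genes. The rule needs a listing in that table, and the count table holds 5 further genes of these names (Wnt1, Wnt7a, Wnt10a, Wnt10b and Dkk4), which had at most 10 reads in any library and are not members because they are not listed.

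RNA was sequenced from a mouse embryonic stem cell (ESC) line carrying a GFP reporter of Osr1, in a derivative with a stable shRNA against DIS3L2 (shDIS3L2) and in a control derivative with a stable shRNA against LacZ (shLacZ). DIS3L2 is an exoribonuclease that degrades uridylated RNA. The libraries of d0 came from undifferentiated ESCs kept in LIF with 2i, the pair of kinase inhibitors that includes a GSK3 inhibitor. The libraries of d2, d4, d6, d8, d10 and d12 came from embryoid bodies (EBs), aggregates formed in hanging drops with serum after LIF and 2i were removed, in which ESCs differentiate spontaneously into many cell types. Each line was sequenced at 7 time points with 1 library per line and day, 14 in all. Each line is a single knockdown population, and no second culture of the same line and day was sequenced.

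Wnt ligands are secreted lipid-modified proteins that bind Frizzled receptors. In the canonical branch they engage Lrp5 or Lrp6 as co-receptor, GSK3 and the rest of the destruction complex no longer mark β-catenin for degradation, and β-catenin acts with TCF and LEF factors on target genes, of which Axin2, Notum and Dkk1 feed back on the pathway. Sfrp proteins and Frzb bind Wnt ligands outside the cell, and Dkk proteins act on the Lrp co-receptors, which is less settled for Dkk3. R-spondins keep the receptors at the cell surface, and Notum removes the lipid from the ligand. In the mouse embryo the pathway is needed for the primitive streak, the structure from which mesoderm and endoderm arise, and Wnt3 is the ligand required first.

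Because TCF and LEF factors bind DNA at a short core, the promoter windows of the members were searched for the letters CTTTGAT on both strands. RefSeq promoter windows of 300 bases (GRCm38.p6, from 250 bases before to 50 bases after each annotated start) were at hand for 27 of the 42 members, 33 windows in all. The core was present in 2 windows, those of Wnt5b and Wnt11, beside 1225 of all 32851 windows, or 3.73%. The 120 bases before the annotated start of each window are printed with the core in capitals. Those of Sp5 follow, a transcription factor known as a direct Wnt target. Sp5 is no member, and its levels are given with the pathway lists. A match of these letters is a description of the window and not evidence of binding.
Wnt5b (chr6:119449387-119449506, minus strand): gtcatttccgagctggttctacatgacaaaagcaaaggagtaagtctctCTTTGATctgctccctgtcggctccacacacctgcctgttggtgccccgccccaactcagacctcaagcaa
Wnt11 (chr7:98834992-98835111, plus strand): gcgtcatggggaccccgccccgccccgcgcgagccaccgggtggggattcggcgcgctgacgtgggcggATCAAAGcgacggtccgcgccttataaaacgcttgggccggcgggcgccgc
Sp5 (chr2:70474803-70474922, plus strand): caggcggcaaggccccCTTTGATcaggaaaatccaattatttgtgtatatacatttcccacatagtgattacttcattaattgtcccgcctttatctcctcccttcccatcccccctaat
In Wnt5b the core begins 71 bases before the start of the window and reads on the strand of the gene. That start lies inside the gene (chr6:119432531-119544347) and not at its outer 5' end. In Wnt11 it begins 51 bases before the start and lies on the opposite strand, so that its reverse complement ATCAAAG is printed, and in Sp5 it begins 104 bases before the start.

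The libraries held 7178712 to 39888099 reads assigned to genes, and 3 reads, taken as the floor of detection, correspond to 0.0752 CPM in the deepest library (shLacZ d0) and 0.418 CPM in the shallowest (shLacZ d4). A range in parentheses after a fold is its 95% interval (Clopper-Pearson, on the reads behind both values) and covers counting error only. Levels are given as CPM, the reads of a gene scaled to a fixed total of reads on genes, and in every list of values the order is d0, d2, d4, d6, d8, d10 and d12. Dis3l2 itself stood in shDIS3L2 at 13.7% of its shLacZ level at d0, at 28.1% at d2, at 32.1% at d4 and at 55.2% at d6. It stood at 97.1% (95% interval 83.7 to 113%) at d8, had an interval of 78.8 to 115% at d10, and stood at 75.5% (60.9 to 93.4%) at d12, so that the libraries labelled shDIS3L2 at d8 and d10 showed no detectable reduction. All 10 pluripotency genes were at 1 CPM or more in both lines at d0. The same held for both lines at d10 and d12, so this count cannot tell ESCs from EBs. The sum over these genes did set d0 apart, as it was highest there (3496 CPM for shLacZ, 2593 CPM for shDIS3L2). By d2 that sum was 1251 CPM for either line, and from d6 on it did not exceed 643 CPM. In whole EBs a change in the number of cells of a type and a change of RNA per cell cannot be told apart.

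All but 3 of the members (Rspo4, Wnt8b and Wnt16) reached 1 CPM in at least 1 library, 30 reached 10 CPM and 8 reached 100 CPM. The number at 1 CPM or more was 22 in shLacZ and 20 in shDIS3L2 at d0, rose to 36 in both lines at d4 and lay between 31 and 36 afterwards. The number at 10 CPM or more went from 9 and 8 at d0 to 20 and 22 at d4, and at d12 it was 18 in shLacZ and 24 in shDIS3L2. For 23 of the 42 members the highest level fell on the same day in both lines, and for 10 of these that day was d4. Per kilobase of gene length, the highest member was Sfrp1 at d0, with 32.5 CPM per kb in shLacZ and 21.6 in shDIS3L2. It was the receptor Fzd7 at d2, with 30.2 and 29.1 CPM per kb. In shLacZ Fzd7 stayed the highest at d4, d8, d10 and d12, with 18 CPM per kb at d12. In shDIS3L2 the decoy genes led on this scale at d4 (Frzb, 50.8 CPM per kb), d8, d10 and d12 (Sfrp1, 48.4, 93.4 and 72.4).

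**Figure D1:**
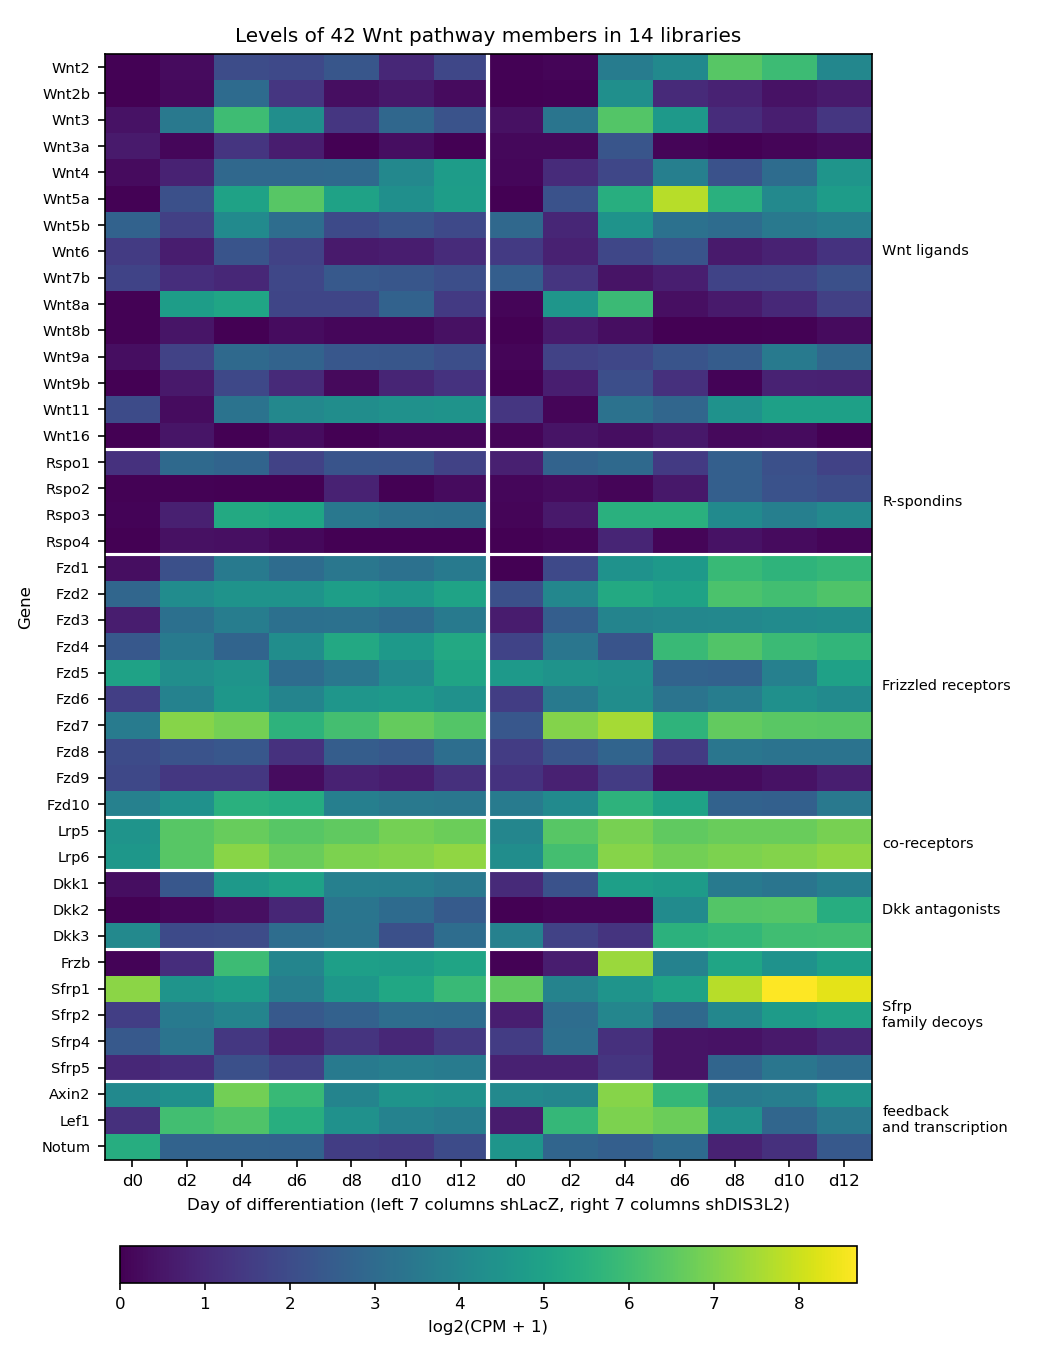
Levels of the 42 members (rows, grouped by role) in the 14 libraries (columns, shLacZ d0 to d12 on the left and shDIS3L2 d0 to d12 on the right), coloured by log2(CPM + 1). Most Wnt ligands are dark at d0 and brighter at d4, and Sfrp1 in shDIS3L2 at d10 is the brightest cell of the map, at 408 CPM.

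The first step, from d0 to d2, spans the removal of LIF and 2i. Most receptors, the transcription factor Lef1 and several Wnt ligands rose, while Sfrp1, Notum and 4 Wnt ligands (Wnt5b, Wnt6, Wnt7b and Wnt11) fell. An edgeR quasi-likelihood test with the 2 lines standing in for replicates called 21 members higher and 10 lower at d2, out of 37 that passed the filter on low counts. The same test called 37.6% of all 18962 genes tested higher and 34.2% lower, beside 56.8% and 27.0% of the members tested, and the median log2 fold was 1.53 over the members tested and 0.11 over all genes. Dkk2, Rspo2, Rspo4, Wnt8b and Wnt16 were not tested. All 21 rises had the same direction in both lines, and so did 9 of the 10 falls, the exception being Axin2. The scale of this step depends on the d0 libraries, whose TMM factors, computed over all 14 libraries, were 0.711 (shLacZ) and 0.623 (shDIS3L2). The test itself used TMM factors computed from the libraries of d0, d2 and d4 after the filter. Without TMM the median over all genes moved from 0.11 to 0.71. The calls over all genes then moved from 7128 higher and 6493 lower to 9194 and 4254, and those of members to 22 higher and 7 lower.

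Among the genes that fell, Sfrp1, a decoy for Wnt ligands (chr8:23411502-23449632, GRCm38), was counted at 142, 21.3, 26.2, 12.3, 23.1, 34.9 and 58.6 CPM in shLacZ and 94.4, 13.6, 21.6, 31, 212, 408 and 316 CPM in shDIS3L2. Its level fell from d0 to d2 in both lines (log2 fold -3.36 ± 0.18 SE, adjusted p = 1.96e-06), and in shDIS3L2 it stood above the d0 level from d8 on. Notum, the extracellular Wnt deacylase, was counted at 41.9, 5.84, 5.71, 5.56, 1.95, 1.69 and 2.98 CPM in shLacZ and 22, 6.07, 5.17, 7.16, 0.763, 1.33 and 4.31 CPM in shDIS3L2. Both lines had their highest level at d0, and the fall to d2 was called (log2 fold -2.97 ± 0.26 SE, adjusted p = 1.56e-05). The receptor Fzd5 stood at 30.9, 18.7, 21.3, 7.44, 9.82, 17.3 and 32.5 CPM in shLacZ and 25.1, 21.2, 19, 5.75, 5.44, 12.6 and 30.4 CPM in shDIS3L2. Its fall to d2 was smaller (log2 fold -1.09 ± 0.20 SE, adjusted p = 0.000997) and missed the threshold without TMM (-0.48, adjusted p = 0.0879). Dkk3 fell too (log2 fold -3.12 ± 0.33 SE, adjusted p = 4.14e-05), as did Wnt5b (-2.60), Wnt6 (-2.01), Wnt7b (-1.996), Wnt11 (-4.31) and Fzd9 (-1.34 on the log2 scale). The call of Fzd9 was lost without TMM (-0.75, adjusted p = 0.165) and under DESeq2 (adjusted p = 0.0618).

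The feedback gene Axin2 (chr11:108920349-108950783) and the transcription factor Lef1 (chr3:131110471-131224356) went apart at this step. Axin2 stood at 16.3, 19.4, 112, 56.1, 14.1, 21.4 and 19.7 CPM in shLacZ and 16, 14.7, 135, 54, 11.2, 12.1 and 21.2 CPM in shDIS3L2. Its levels at d0 and d2 were close, and the called change (log2 fold -0.53 ± 0.20 SE, adjusted p = 0.0398) turned to 0.072 without TMM, with opposite signs of the CPM difference in the 2 lines. Lef1, in contrast, was counted at 1.33, 64.6, 77.5, 42.6, 19.8, 13.4 and 11.8 CPM in shLacZ and 0.567, 53.6, 123, 104, 19.7, 6.35 and 10.4 CPM in shDIS3L2. It rose from d0 to d2 in both lines (log2 fold 5.32 ± 0.36 SE, adjusted p = 4.07e-06) and had its highest level at d4 in both. The rise of Lef1 from d2 to d4 was not called (log2 fold 0.79 ± 0.28 SE, adjusted p = 0.0721).

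The receptors at d2 were led by Fzd7, which was counted at 11.2, 137, 116, 48, 66.1, 97.6 and 81.5 CPM in shLacZ and 4.08, 132, 180.1, 49.2, 94.9, 86.1 and 85.3 CPM in shDIS3L2. Its CPM, which is not scaled by TMM, rose 12.3-fold (11.1 to 13.6) from d0 to d2 in shLacZ and 32.2-fold (26.6 to 39.5) in shDIS3L2. With TMM, edgeR over both lines gave log2 fold 3.58 ± 0.37 SE, adjusted p = 3.73e-05. The co-receptor Lrp5 stood at 21.5, 83.9, 99.5, 84.2, 94, 114 and 104 CPM in shLacZ and 15, 85.7, 117, 92.9, 103, 103 and 117 CPM in shDIS3L2, and Lrp6 at 23.1, 85.7, 138, 103, 123, 132 and 150.3 CPM in shLacZ and 18.2, 66.9, 135, 113, 125, 132 and 150.3 CPM in shDIS3L2. Both rose from d0 to d2 (log2 fold 1.62 ± 0.18 SE, adjusted p = 5.44e-05 for Lrp5 and log2 fold 1.28 ± 0.16 SE, adjusted p = 0.000112 for Lrp6), and their levels in the lines then ran close together to d12. Fzd6, a receptor of the planar polarity branch, was counted at 2.03, 13.2, 23.1, 14.1, 22.4, 24.6 and 19.9 CPM in shLacZ and 1.96, 10.6, 18, 9.05, 11.9, 19.6 and 16.7 CPM in shDIS3L2. It rose from d0 to d2 (log2 fold 1.96 ± 0.28 SE, adjusted p = 0.000243) and stayed at a like level afterwards. Of the 10 Frizzled genes 6 rose and 2 (Fzd5 and Fzd9) fell at this step, beside 37.6% and 34.2% of all genes, while Fzd8 and Fzd10 were not called.

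From d2 to d4, 10 of the 13 Wnt ligands tested rose. The test called 17 members higher and 2 lower (Fzd4 and Sfrp4) of 37 tested, beside 12.3% higher and 11.4% lower of all 18962 genes, with a median log2 fold of 0.89 over the members tested and -0.014 over all genes. The ligands called higher were Wnt2, Wnt2b, Wnt3, Wnt3a, Wnt4, Wnt5a, Wnt5b, Wnt6, Wnt9b and Wnt11, while Wnt7b, Wnt8a and Wnt9a were not called and Wnt8b and Wnt16 were not tested. The other members called higher were Rspo3, Dkk1, Frzb, Axin2, Lrp6, Fzd1 and Fzd10. The fall of Fzd4 missed the threshold without TMM (adjusted p = 0.052) and without line as a block (0.0536). All 17 rises and both falls had the same direction in the 2 lines. Summed levels of the 8 primitive streak-like markers moved with this step, from 19.4 to 1055 CPM in shLacZ and from 14.1 to 1909.7 CPM in shDIS3L2, and all 8 were at 1 CPM or more at d4. The part of these cells in the rise of the members was not tested.

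Wnt3, the ligand needed for the primitive streak, was counted at 0.351, 10.3, 62.7, 18.6, 1.6, 6.42 and 3.67 CPM in shLacZ and 0.302, 9.3, 81.2, 24.6, 1.17, 0.663 and 1.59 CPM in shDIS3L2. It rose at both early steps (4.28 and then 2.89 on the log2 scale), peaked at d4 in both lines and was back under 10 CPM from d8. Wnt8a, a streak ligand, stood at 0.0251, 27.4, 33.3, 2.48, 2.54, 5.69 and 1.79 CPM in shLacZ and 0.0755, 22.4, 58.9, 0.283, 0.56, 0.995 and 2.15 CPM in shDIS3L2. It was present already at d2, after 1 read in shLacZ and 2 reads in shDIS3L2 at d0, and the change from d2 to d4 was not called (adjusted p = 0.0575). Wnt3a, which acts in the tail bud, was low throughout, with its highest level at d4 (1.53 CPM in shLacZ and 3.91 in shDIS3L2).

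The ligands of the noncanonical branch differed from each other in their course. Wnt5a, which acts through Ror receptors, was counted at 0.0251, 3.37, 31.1, 83.9, 30.6, 19.1 and 27.7 CPM in shLacZ and 0, 3.55, 42.7, 211, 44.3, 16.1 and 26.5 CPM in shDIS3L2. It had 1 read in shLacZ and none in shDIS3L2 at d0, rose from d2 to d4 (log2 fold 3.42 ± 0.29 SE, adjusted p = 0.000179) and peaked at d6 in both lines. Wnt5b, whose promoter stretch is printed at the start, was counted at 5.67, 2.16, 16.9, 7.52, 2.84, 3.75 and 2.78 CPM in shLacZ and 6.57, 0.888, 20.9, 8.39, 7.38, 10.4 and 12.3 CPM in shDIS3L2. The rise from d2 to d4 (log2 fold 3.64 ± 0.43 SE, adjusted p = 0.000678) followed the fall from d0 to d2 (log2 fold -2.60 ± 0.42 SE, adjusted p = 0.000527). Wnt11, the other ligand with the TCF core in its window, stood at 2.93, 0.227, 8.92, 15.6, 18.3, 19.9 and 21 CPM in shLacZ and 1.59, 0.0935, 8.6, 6.31, 20.7, 29.2 and 29.9 CPM in shDIS3L2. Only 6 and 2 reads were left at d2, and unlike Wnt5b it had no peak at d4 but stood higher at d12 than at d4 in both lines.

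**Figure D2:**
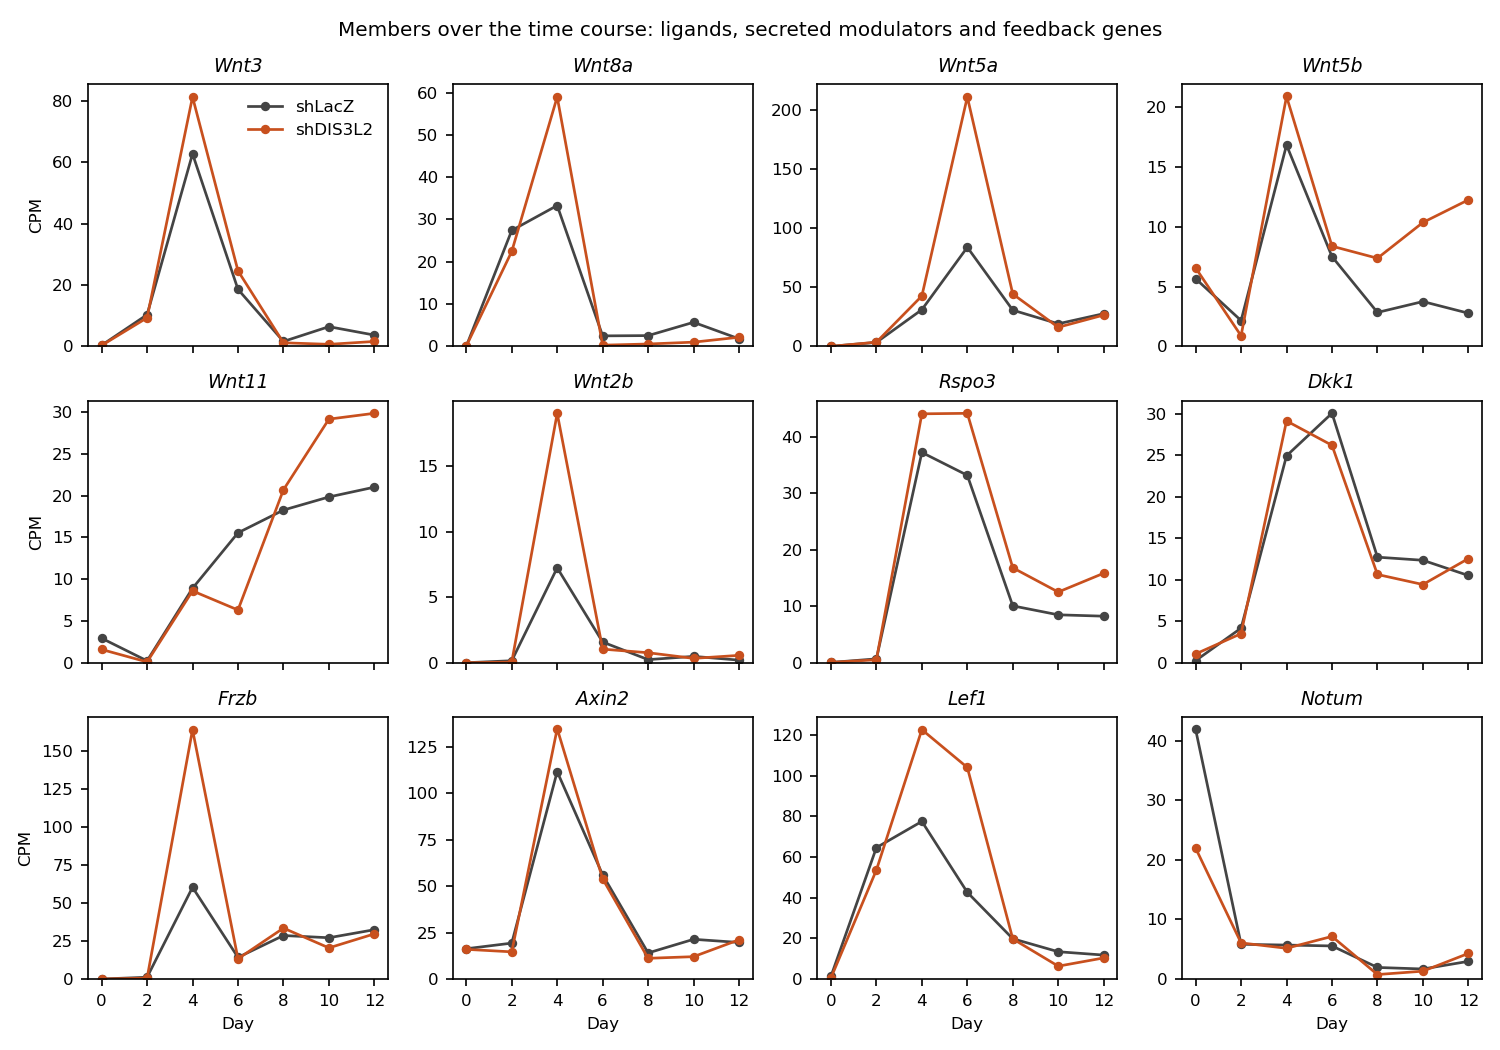
Levels in CPM (linear axis from 0, a different range in each panel) by day for 12 members, with 1 point per library, shLacZ in grey and shDIS3L2 in orange. Wnt3, Wnt8a, Wnt2b, Wnt5b, Frzb, Axin2 and Lef1 have their highest point at d4 in both lines, Wnt5a at d6, and Notum at d0.

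Further ligands were lower. Wnt4, known from kidney and gonad development, was counted at 0.201, 0.758, 6.55, 6.69, 6.86, 15.7 and 26.9 CPM in shLacZ and 0.113, 1.07, 2.56, 12.4, 3.51, 7.44 and 22.1 CPM in shDIS3L2. It rose from d2 to d4 (log2 fold 2.19 ± 0.53 SE, adjusted p = 0.0173) and reached its highest levels at d12. Wnt2b was counted at 0, 0.152, 7.24, 1.58, 0.237, 0.484 and 0.198 CPM in shLacZ and 0, 0.0467, 19, 1.04, 0.763, 0.332 and 0.562 CPM in shDIS3L2. It was above 2 CPM at d4 alone, and shDIS3L2 exceeded shLacZ there 2.63-fold (1.96 to 3.58). Wnt9a stood at 0.251, 2.27, 6.83, 5.79, 4.14, 3.99 and 3.27 CPM in shLacZ and 0.0755, 2.29, 2.56, 3.77, 4.73, 10.6 and 6.65 CPM in shDIS3L2. Its rise from d0 to d2 was called, from 10 and 2 reads at d0.

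Among the secreted modulators, Rspo3, which potentiates Wnt signals, was counted at 0.0501, 0.682, 37.2, 33.1, 10.1, 8.47 and 8.23 CPM in shLacZ and 0.0755, 0.514, 44, 44.1, 16.8, 12.5 and 15.8 CPM in shDIS3L2. Its rise from d2 to d4 was among the steepest of the tested members (log2 fold 6.07 ± 0.34 SE, adjusted p = 5.17e-05), and it stayed near that level at d6. Dkk1, the antagonist induced by Wnt signals, was counted at 0.251, 4.17, 24.9, 30.1, 12.7, 12.3 and 10.5 CPM in shLacZ and 1.06, 3.5, 29.1, 26.2, 10.6, 9.42 and 12.5 CPM in shDIS3L2. It rose at both steps (2.10 from d0 to d2 and 2.80 from d2 to d4 on the log2 scale) and peaked at d6 in shLacZ and d4 in shDIS3L2. Frzb, a decoy of the Sfrp family, stood at 0.0501, 1.21, 60.5, 14.3, 28.7, 27.2 and 32.5 CPM in shLacZ and 0.0378, 0.607, 164, 13.4, 33.6, 20.6 and 29.8 CPM in shDIS3L2. It rose from d2 to d4 (log2 fold 6.75 ± 0.48 SE, adjusted p = 0.000104), and at d4 shDIS3L2 exceeded shLacZ 2.72-fold (2.46 to 3.01). Axin2 rose 5.76-fold (5.16 to 6.46) in shLacZ and 9.18-fold (8.18 to 10.4) in shDIS3L2 from d2 to d4 and fell again by d8. Activators and inhibitors of the pathway were thus both among the members that rose at this step. Fzd10 was counted at 13, 19.9, 45, 40.5, 12.4, 10.3 and 9.82 CPM in shLacZ and 11.1, 16.8, 47.3, 31.3, 5.7, 5.3 and 10.3 CPM in shDIS3L2. It had its highest level at d4 in both lines (log2 fold 1.36 ± 0.20 SE, adjusted p = 0.00174 from d2).

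**Figure D3:**
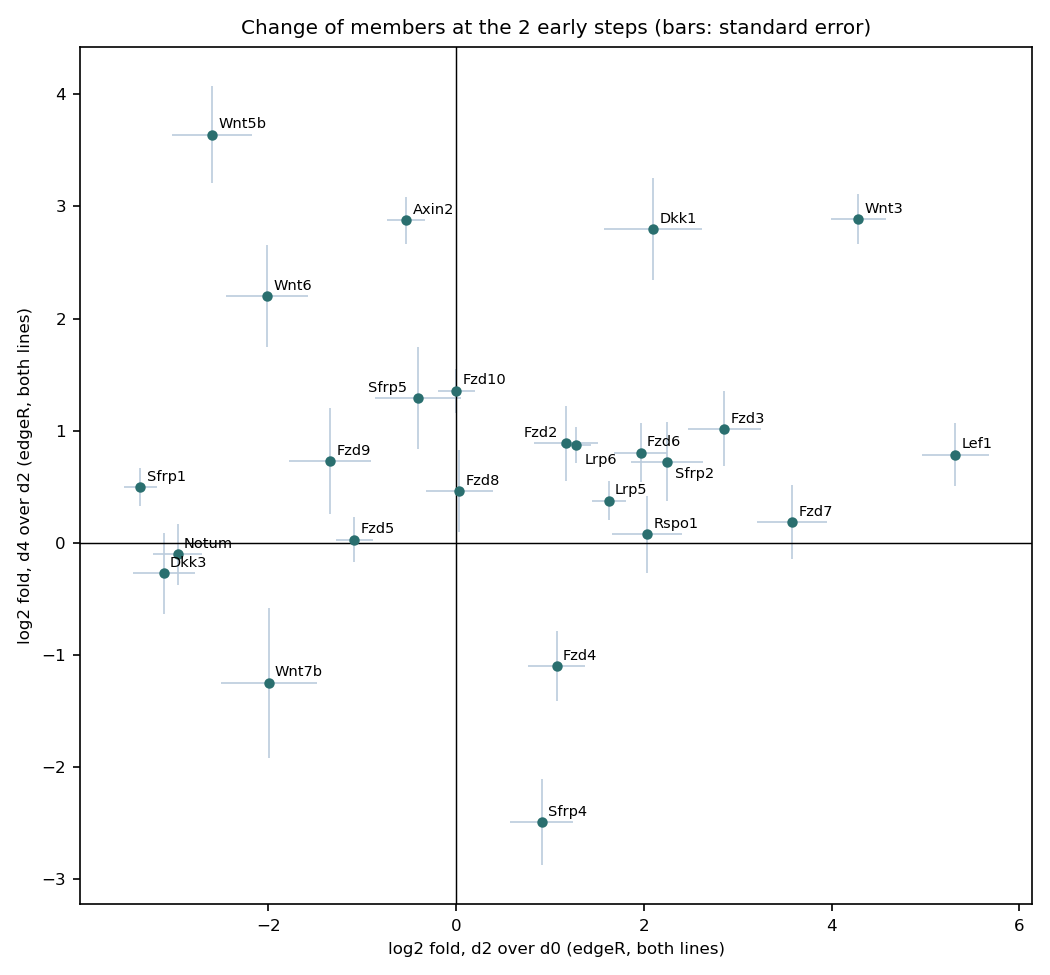
Change of 25 members with more than 3 reads in each library of d0 and d2, as log2 fold from d0 to d2 (x axis) and from d2 to d4 (y axis) with standard errors from edgeR, both lines together. Wnt5b, Wnt6 and Axin2 sit at the upper left (down, then up), Wnt3 and Dkk1 at the upper right (up at both steps), and the axes share the d2 libraries.

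Between the lines, few members were at least 3-fold apart in the first days, where 3-fold is called only with 1 CPM or more in 1 of the 2 libraries of the day. At d0, 1 member was higher in shDIS3L2 (Dkk1) and 1 lower (Sfrp2) of 23 compared, beside 0.584% higher and 2.25% lower of all protein-coding genes compared. At d2 none of 30 members was that far apart, beside 0.114% and 0.129%. At d4, 1 of 36 was higher (Wnt2) and none lower, beside 0.361% and 1.68%. With 1 library per line and day these folds have no replicate check.

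From d6 on, some genes of the Dkk and Sfrp families (Dkk2, Dkk3, Sfrp1 and Sfrp2), some Frizzled receptors, Rspo2 and Wnt2 stood higher in shDIS3L2. Sfrp4 and Sfrp5 of these families were over 3-fold lower on a single day each. At d6, 5 of 35 members were at least 3-fold higher (Dkk2, Dkk3, Fzd1, Fzd4 and Wnt2) and 3 lower (Sfrp5, Wnt7b and Wnt8a), beside 2.7% and 4.23% of all protein-coding genes compared. At d8, 6 of 34 were higher (Dkk2, Dkk3, Fzd1, Rspo2, Sfrp1 and Wnt2) and 2 lower (Sfrp4 and Wnt8a), beside 5.47% and 3.71%. At d10, 7 of 33 were higher (the members of d8 and Sfrp2) and 2 lower (Wnt3 and Wnt8a), beside 8.65% and 3.13%. At d12, 8 of 37 were higher (the members of d10 and Wnt5b) and none lower, beside 8.1% and 1.41%. Dkk2, Dkk3, Fzd1 and Wnt2 were on the list on all 4 days. At a fold of 2 or more in place of 3, 8, 11, 13 and 10 members were higher on d6, d8, d10 and d12, beside 6.97%, 11.7%, 14.5% and 13.4% of all genes compared. In the other direction 4, 4, 4 and 1 members were lower on these days, beside 8.32%, 8.49%, 8.68% and 4.21%.

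Over the 4 days together, the edgeR test with day as a block called 13 members higher in shDIS3L2 and 3 lower, with 21 tested and not called. The same test called 19.6% of all 17164 genes tested higher and 18.7% lower beside 35.1% and 8.11% of the 37 members tested, and the median log2 fold of the members tested was 0.079 beside 0.016 over all genes. Fzd9, Rspo4, Wnt3a, Wnt8b and Wnt16 were not tested. All 13 members called higher were higher on each of the 4 days, and of those called lower Wnt8a was the exception, at d12. The count of members called lower was 0 without d8 and 0 without d10 (1 and 3 at an unadjusted p under 0.05). The 4 days of a single series stand in for replicates, so the test does not speak of other cultures of these lines. Without d8 and d10, the days on which a lower Dis3l2 level was not detectable, 4 libraries remained and edgeR called none of 15950 genes, so that this setting gives no call for or against a member (10 of 35 members were higher and 0 lower at an unadjusted p under 0.05). The log2 folds then were 3.58 for Dkk2, 2.82 for Dkk3, 1.99 for Fzd1, 2.55 for Wnt2 and 1.92 for Sfrp1, and the called members still tested (all but Rspo2 and Sfrp4) kept their direction.

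**Figure D4:**
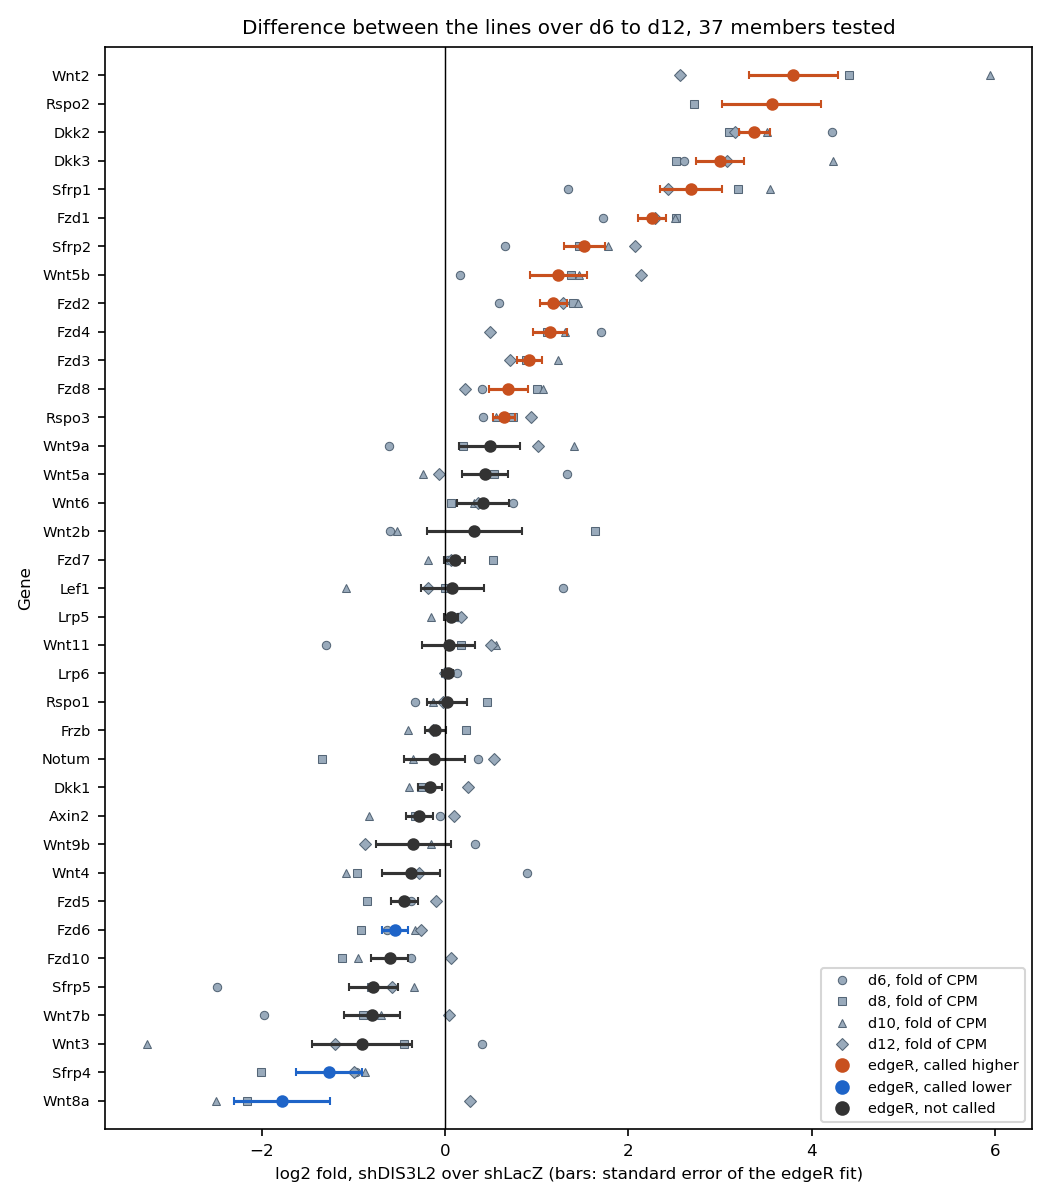
Difference between the lines over d6 to d12 for the 37 members tested, as log2 fold of shDIS3L2 over shLacZ. Large points are edgeR estimates with standard errors, coloured by call, and small points are the folds of CPM on each day where both libraries had more than 3 reads. Wnt2, Rspo2, Dkk2, Dkk3, Sfrp1 and Fzd1 lie furthest to the right, and Lrp5 and Lrp6 lie near 0 with short bars.

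The decoy Sfrp1, whose CPM values stand above, was the highest member per kilobase in shDIS3L2 from d8 to d12. On single days shDIS3L2 exceeded shLacZ 2.53-fold (2.09 to 3.07), 9.16-fold (8.26 to 10.2), 11.7-fold (10.4 to 13.2) and 5.4-fold (4.94 to 5.9) on d6, d8, d10 and d12 (log2 fold 2.68 ± 0.33 SE, adjusted p = 0.00164). Before d6 the order was the opposite, with shLacZ higher at d0, d2 and d4. On those days 24.5%, 39.4% and 48.6% of all protein-coding genes compared stood higher in shDIS3L2. Sfrp2, a second decoy, was counted at 2.03, 11, 14.1, 4.36, 5.5, 7.63 and 7.34 CPM in shLacZ and 0.642, 7.52, 14.6, 6.88, 15.2, 26.3 and 30.8 CPM in shDIS3L2. Its fold between the lines was 1.04-fold (0.828 to 1.32) at d4, 2.75-fold (2.18 to 3.52) at d8 and 4.19-fold (3.25 to 5.48) at d12 (log2 fold 1.52 ± 0.22 SE, adjusted p = 0.00286). Of the rest of the family, Frzb was not called (log2 fold -0.10 ± 0.12 SE, adjusted p = 0.531), nor was Sfrp5 (-0.79, adjusted p = 0.0544), and Sfrp4 was lower (log2 fold -1.27 ± 0.36 SE, adjusted p = 0.0297) at levels between 0.356 and 1.69 CPM, a call lost under DESeq2 (adjusted p = 0.111) and without d8 (0.135), d10 (0.0737) or d12 (0.0603). Sfrp5 was called lower under DESeq2, with DESeq2 size factors in edgeR, without the filter on low counts and without d6.

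The Dkk antagonists divided. Dkk2 (chr3:132085292-132180304) stood at 0.0251, 0.114, 0.279, 0.902, 9.47, 7.26 and 4.56 CPM in shLacZ and 0, 0.0935, 0.0966, 17.1, 81.4, 83.1 and 41 CPM in shDIS3L2. It was near the floor until d4, stood higher in both lines from d8 and reached a level in shDIS3L2 that was 18.6-fold (10.6 to 37.3) that of shLacZ on d6, 8.59-fold (7.31 to 10.2) on d8, 11.4-fold (8.84 to 15.1) on d10 and 8.97-fold (6.63 to 12.5) on d12 (log2 fold 3.38 ± 0.17 SE, adjusted p = 0.000205). Dkk3, a divergent member of the family whose action on Wnt signals is less settled, was counted at 16, 2.84, 3.06, 7.67, 9.23, 3.39 and 7.64 CPM in shLacZ and 13.1, 2.29, 1.45, 46.7, 52.9, 64 and 64.5 CPM in shDIS3L2. Its fold between the lines was 0.475-fold (0.264 to 0.861) at d4, 6.08-fold (4.91 to 7.61) at d6 and 18.8-fold (13 to 28.5) at d10 (log2 fold 3.0001 ± 0.26 SE, adjusted p = 0.000568). Dkk1 was not called (log2 fold -0.16 ± 0.13 SE, adjusted p = 0.37), and its levels in the 2 lines at d8 to d12 overlapped.

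Among the ligands, Wnt2 (chr6:17988940-18030585), known from heart and lung mesoderm, was counted at 0.0251, 0.19, 3.06, 2.78, 4.02, 0.968 and 2.58 CPM in shLacZ and 0.0378, 0.0935, 11.6, 16.5, 85.7, 60.5 and 15.3 CPM in shDIS3L2. It was the member that was over 3-fold apart at d4, 3.77-fold (2.44 to 6.15) higher in shDIS3L2, and the gap grew to 21.2-fold (16.7 to 27.6) at d8 and 61.6-fold (31.6 to 145) at d10, where shLacZ had 8 reads, before it narrowed to 5.89-fold (3.9 to 9.33) at d12 (log2 fold 3.80 ± 0.49 SE, adjusted p = 0.00182 over the 4 days). Wnt5b was higher in shDIS3L2 as well (log2 fold 1.24 ± 0.31 SE, adjusted p = 0.0191), with 1.12-fold (0.829 to 1.5) at d6 and 4.4-fold (2.92 to 6.9) at d12, but the call was lost without d8 (adjusted p = 0.0877) and without d10 (0.0902). Wnt8a was lower in shDIS3L2 at d6, d8 and d10 and not at d12 (log2 fold -1.78 ± 0.52 SE, adjusted p = 0.0338), and the call was lost without d6 (adjusted p = 0.056), d8 (0.137) or d10 (0.166). At d6 it had 33 reads in shLacZ and 3 in shDIS3L2, a ratio of 0.119 (0.0224 to 0.363). Wnt3 was not called over the 4 days (log2 fold -0.91 ± 0.54 SE, adjusted p = 0.228), although at d10 it stood at 6.42 CPM in shLacZ and 0.663 in shDIS3L2. Wnt5a was not called either (log2 fold 0.43 ± 0.25 SE, adjusted p = 0.209), with 2.52-fold (2.34 to 2.71) at d6 and 0.958-fold (0.809 to 1.13) at d12. Neither were Wnt4 (-0.37), Wnt9a (0.49) and Wnt11 (0.039 on the log2 scale). These depended on d6: without it Wnt9a and Wnt11 were called higher and Wnt3 and Wnt4 lower, and the fold of Wnt11 was 0.406-fold (0.303 to 0.537) at d6 against 1.13-fold (0.975 to 1.32) at d8, 1.47-fold (1.24 to 1.76) on d10 and 1.42-fold (1.19 to 1.7) on d12.

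Of the R-spondins, Rspo2 was detected mainly in shDIS3L2 and late. It had 0, 13, 0 and 2 reads in shLacZ at d6, d8, d10 and d12 against 5, 101, 75 and 33 in shDIS3L2. With the floor of 3 reads for the shLacZ library, it was at least 9.78-fold higher in shDIS3L2 at d10, and the ratio at d12 was 14.6 (3.98 to 134). Rspo3 was higher in shDIS3L2 by a smaller amount (log2 fold 0.64 ± 0.12 SE, adjusted p = 0.00672), between 1.33-fold (1.17 to 1.52) at d6 and 1.92-fold (1.47 to 2.53) at d12. The call of Rspo3 was lost without day as a block. Rspo1 did not pass the test (log2 fold 0.02 ± 0.22 SE, adjusted p = 0.951).

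**Figure D5:**
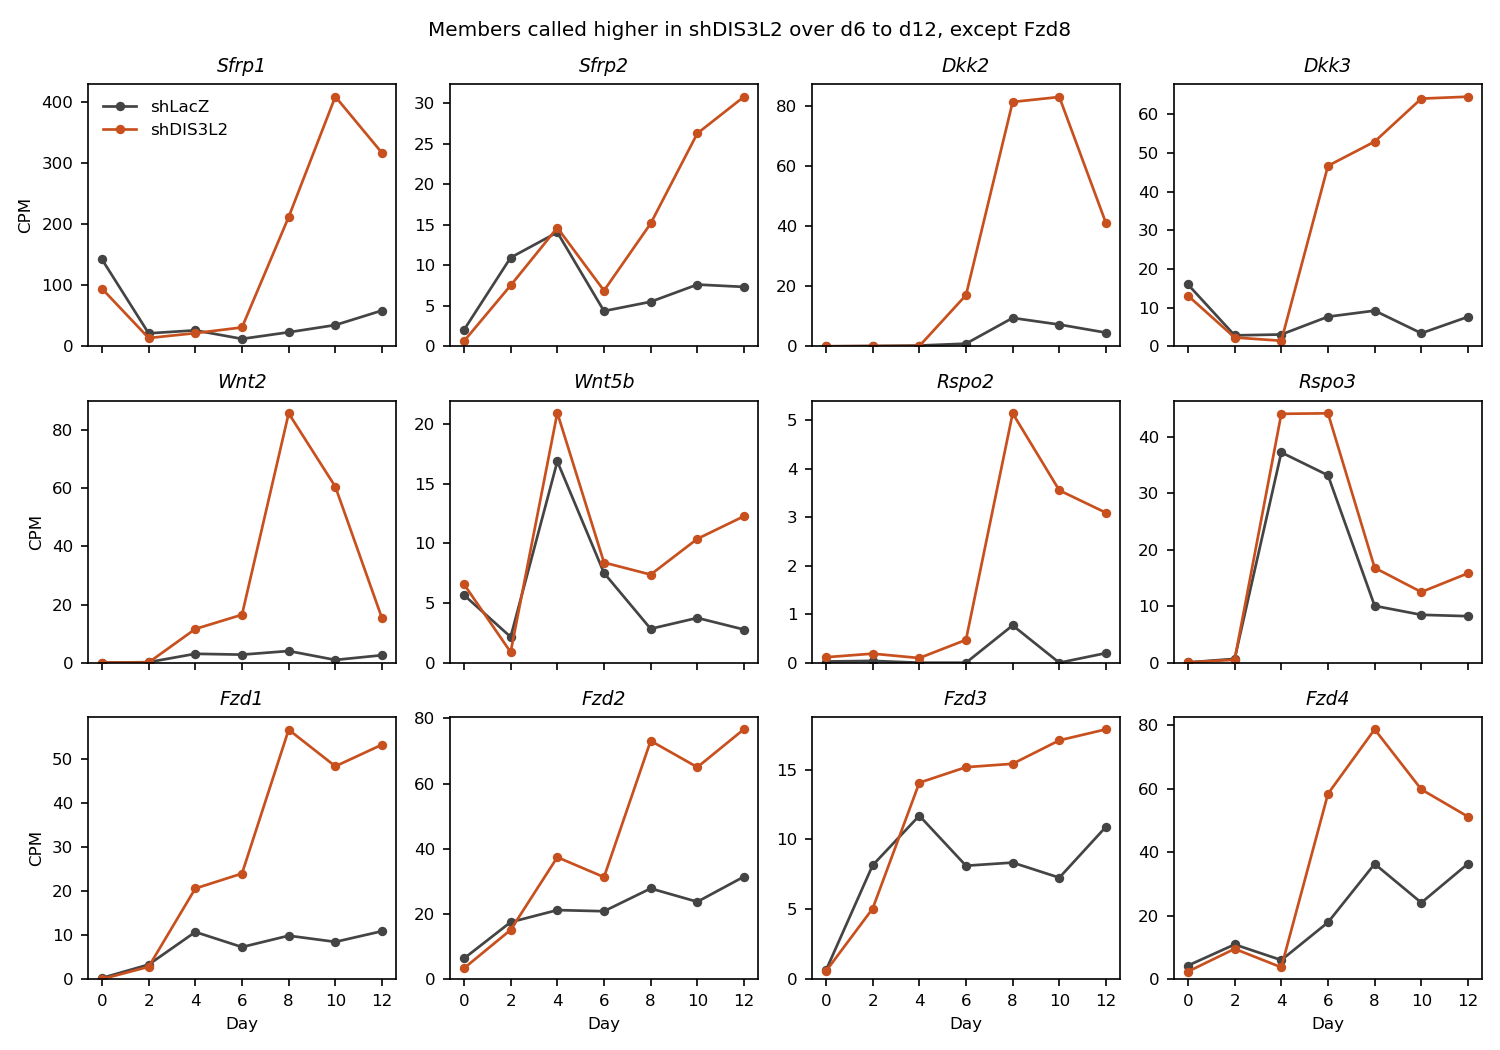
Levels in CPM (linear axis from 0, a different range in each panel) by day for 12 of the 13 members called higher in shDIS3L2 over d6 to d12, with 1 point per library, shLacZ in grey and shDIS3L2 in orange. In every panel the orange points lie above the grey ones from d6 to d12. At d0 and d2 they lie below them for Sfrp1, Sfrp2, Dkk3, Fzd1, Fzd2, Fzd3 and Fzd4. On this unscaled CPM, only 24.5% of all protein-coding genes compared stood higher in shDIS3L2 at d0 and 39.4% at d2. Dkk2 was at the floor of 3 reads or below in both lines on these 2 days.

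The Frizzled receptors were divided as well, with 5 of 9 tested called higher and 1 lower, beside 19.6% and 18.7% of all genes. Fzd1 (chr5:4753839-4758035) stood at 0.251, 3.3, 10.7, 7.29, 9.88, 8.47 and 10.9 CPM in shLacZ and 0, 2.8, 20.6, 24, 56.8, 48.4 and 53.4 CPM in shDIS3L2. It was higher in shDIS3L2 from d4 on, by 1.92-fold (1.51 to 2.48) at d4 and by 5.74-fold (4.88 to 6.8) at d8 (log2 fold 2.26 ± 0.15 SE, adjusted p = 0.000339). Fzd2 was counted at 6.32, 17.5, 21.2, 20.8, 27.8, 23.7 and 31.4 CPM in shLacZ and 3.32, 15.1, 37.4, 31.3, 73.1, 65 and 76.7 CPM in shDIS3L2. The gap of Fzd2 went from 1.5-fold (1.28 to 1.77) at d6 to 2.44-fold (2.14 to 2.79) at d12 (log2 fold 1.18 ± 0.15 SE, adjusted p = 0.0017). Fzd4, a receptor of vascular development, was counted at 4.26, 10.9, 5.99, 17.9, 36.3, 24.1 and 36.4 CPM in shLacZ and 2.38, 9.53, 3.72, 58.4, 78.8, 59.8 and 51.2 CPM in shDIS3L2. It was 3.26-fold (2.81 to 3.81) higher in shDIS3L2 at d6 and 1.41-fold (1.23 to 1.61) at d12 (log2 fold 1.14 ± 0.19 SE, adjusted p = 0.00397), and it was also the receptor called lower at d4 than at d2 (log2 fold -1.10 ± 0.31 SE, adjusted p = 0.0333), a call lost in the settings named above. Fzd3 stood at 0.627, 8.15, 11.7, 8.12, 8.34, 7.26 and 10.9 CPM in shLacZ and 0.567, 5.05, 14.1, 15.2, 15.4, 17.1 and 17.9 CPM in shDIS3L2. The widest gap from d6 on was 2.35-fold (1.79 to 3.15), at d10 (log2 fold 0.92 ± 0.14 SE, adjusted p = 0.00292). Fzd8, which did not reach 10 CPM, was called (log2 fold 0.69 ± 0.21 SE, adjusted p = 0.0403), but not under DESeq2 (adjusted p = 0.066), without d8 (0.185) or without d10 (0.173). Fzd6 was lower in shDIS3L2 (log2 fold -0.55 ± 0.14 SE, adjusted p = 0.0219), a call that was lost without d8 (adjusted p = 0.1001) and without d10 (0.0553).

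Fzd7, the highest member per kilobase in shLacZ at d12, was not called (log2 fold 0.10 ± 0.11 SE, adjusted p = 0.512), nor were Fzd5 (log2 fold -0.44 ± 0.15 SE, adjusted p = 0.0505) and Fzd10 (log2 fold -0.60 ± 0.20 SE, adjusted p = 0.0527). Other settings did call lower levels of Fzd5 and Fzd10 in shDIS3L2. Fzd10 was called under DESeq2, with DESeq2 size factors in edgeR and without the filter on low counts, and Fzd5 with DESeq2 size factors. For the co-receptors the estimates lay near 0 with small errors, as Lrp5 had log2 fold 0.064 ± 0.074 SE, adjusted p = 0.53 and Lrp6 log2 fold 0.027 ± 0.063 SE, adjusted p = 0.766. On single days their folds lay between 0.902 and 1.12 from d6 to d12. Of the feedback genes, Axin2 was not called over d6 to d12 (log2 fold -0.28 ± 0.15 SE, adjusted p = 0.19). Its fold was 0.962-fold (0.861 to 1.07) on d6, 0.795-fold (0.659 to 0.959) on d8, 0.564-fold (0.463 to 0.687) on d10 and 1.07-fold (0.882 to 1.3) on d12. Lef1 changed sides between days, with 2.44-fold (2.2 to 2.7) at d6 and 0.473-fold (0.365 to 0.613) at d10 (log2 fold 0.079 ± 0.34 SE, adjusted p = 0.876). Notum stood between 0.763 and 7.16 CPM over these days and was not called either (log2 fold -0.12 ± 0.33 SE, adjusted p = 0.806).

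Levels of cell type markers moved with these differences. The 10 mesenchyme-like markers (Col1a1, Col1a2, Col3a1, Pdgfra, Twist1, Prrx1, Thy1, Lum, Dcn and Postn) summed to 349 to 1923 CPM in the shLacZ libraries of d6 to d12 and to 1093 to 16724 CPM in those of shDIS3L2, and 8 of the 10 were called higher in the same test. None of them was at 0 reads in these libraries. The 10 visceral endoderm-like markers summed to 2875 to 7018 CPM in shLacZ and to 569 to 1989.5 CPM in shDIS3L2, and all 10 were called lower. The 10 pluripotency genes summed to 529 to 643 and 176 to 442 CPM, with 8 called lower, and the 8 primitive streak-like markers to 29.3 to 108 and 8.29 to 37.7 CPM, with 4 of 7 tested called lower. The part of these cell types in the differences of the members was not tested.

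Other genes of the pathway were read from 4 lists, which share Lgr5, Nkd1 and Tcf7 between them. The shares of all genes called, against which their counts stand, were 37.6% higher and 34.2% lower from d0 to d2, 12.3% and 11.4% from d2 to d4, and 19.6% and 18.7% between the lines over d6 to d12. Of the list of secretion and receptor turnover (20 genes), 10 were called higher and 4 lower from d0 to d2 of 17 tested, and 12 higher and 1 lower from d2 to d4. Wls, the carrier of Wnt ligands to the cell surface, rose at both steps (1.27 ± 0.25 and 3.90 ± 0.24, log2 fold ± SE), as did the R-spondin receptor Lgr5, which had no read at d0 (3.04 ± 0.51 from d2 to d4). Cer1, a secreted antagonist of the streak and anterior endoderm, rose from 0.152 to 12.4 CPM in shLacZ and from 0 to 33.9 CPM in shDIS3L2 from d2 to d4. Over d6 to d12, 7 of 16 tested were higher in shDIS3L2 (Lgr6, Adgra2, Reck, Apcdd1, Wls, Lgr4 and Kremen1) and 1 lower (Cer1, -2.52 ± 0.67). Wls stood at 0.56 ± 0.085 in that comparison, and Reck, which with Adgra2 serves as a co-receptor complex for Wnt7, at 1.13 ± 0.15.

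Of the 15 noncanonical receptors and planar polarity genes, all tested, 7 were higher and 4 lower at d2 than at d0, and 7 were higher at d4 than at d2 with the other 8 not called. Over d6 to d12, 7 were higher in shDIS3L2 and 2 lower (Celsr2 and Vangl1). The Wnt5a receptors Ror1 (2.06 ± 0.24) and Ror2 (1.02 ± 0.14) were among the former, with Ror1 at 0.326, 8.91, 18.2, 3.08, 7.87, 11.6 and 8.83 CPM in shLacZ and 0.113, 9.11, 21.9, 23.1, 41.3, 28.7 and 31.2 CPM in shDIS3L2. Of the 20 genes of the destruction complex, Dishevelled and TCF factors, 8 were higher and 4 lower at d2 than at d0, for the higher ones a share near that of all genes, and 9 were higher at d4 than at d2 with 11 not called. Over d6 to d12, 8 were higher in shDIS3L2, from Pygo1 (2.10 ± 0.25) and Apc2 (1.55 ± 0.32) to Gsk3b (0.20 ± 0.063) and Csnk1a1 (0.19 ± 0.062), and Tcf7l2 was lower (-0.54 ± 0.10).

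Of the 16 known Wnt targets of the streak and mesoderm, 5 were called higher and 4 lower (Cdx1, Sp5, Ccnd1 and T) from d0 to d2, no larger a share than of all genes, and from d2 to d4, 14 were called higher, with a median log2 fold of 4.16 over the list beside -0.014 over all genes. Sp5 was counted at 12.6, 0.455, 36.2, 2.48, 0.592, 4.24 and 1.39 CPM in shLacZ and 22.5, 0.561, 83.2, 0.942, 0.153, 0.474 and 0.843 CPM in shDIS3L2. It was present at d0, fell at d2 (-5.67 ± 0.29) and rose at d4 (6.80 ± 0.30). Over d6 to d12, 6 of 13 tested were lower in shDIS3L2 (Fgf8, Mixl1, T, Sp5, Sp8 and Cdx2) and 1 higher (Nkd1, 0.57 ± 0.15). T, the streak and notochord factor, was counted at 2.01, 1.63, 486, 29.9, 6.86, 32.9 and 13.5 CPM in shLacZ and 2.27, 0.561, 795, 6.5, 1.17, 2.13 and 6.84 CPM in shDIS3L2, with a log2 fold of -2.40 ± 0.43 over d6 to d12. T, Mixl1, Tbx6, Msgn1 and Evx1 are also on the list of primitive streak-like markers, so the lists are not independent.

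The remaining members were low or did not meet the rule for values in every library. Sfrp5 reached 12.2 CPM at d10 in shLacZ and was called in the main test at neither early step nor over d6 to d12, where other settings called it lower. Wnt6, Wnt7b, Rspo1, Rspo2, Fzd8, Fzd9 and Sfrp4 had highest levels between 2.66 and 9.72 CPM. Wnt3a reached 3.91 CPM and Wnt9b 3.29 CPM, both at d4 in shDIS3L2. Rspo4, Wnt8b and Wnt16 stayed at 0.87 CPM or less and did not pass the filter on low counts. Without that filter edgeR called all 3 higher at d2 than at d0, beside 7566 of all 31043 genes tested. These calls rest on few reads. Rspo4 went from 0 and 0 reads in shLacZ and shDIS3L2 at d0 to 8 and 2 at d2. Wnt16 went from 0 and 2 to 11 and 8, and Wnt8b from 1 and 0 to 11 and 12.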

How the data were processed

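RNA of undifferentiated ESCs (d0) and of EBs (d2 to d12) of the lines shLacZ and shDIS3L2 was sequenced, 1 library per line and day, and samples were grouped by these labels. The authors aligned the reads with Subread to GRCm38 and deposited the number of reads per gene from featureCounts as raw counts. The authors also deposited edgeR CPM values of 16181 protein-coding genes, which equal the count plus 0.25 over the sum of the listed genes, and these served to find the members and as an alternative scale. Neither table holds replicates, and the paper's methods name no test for them.

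CPM was computed from the counts over all 50686 genes, with 0.25 reads added, in proportion to depth, before a fold between 2 libraries was taken. Single days were read by size alone: a protein-coding gene counted as higher or lower at 3-fold or more where either library reached 1 CPM. Intervals and the floor of 3 reads cover counting error only, because reads amplified without identifiers do not each stand for a molecule. Tests were run on the counts in R 4.3.3 with the quasi-likelihood method of edgeR 4.0.16, after filterByExpr and TMM scaling, and a call needed a p under 0.05 after Benjamini-Hochberg adjustment over all genes tested. For d6 to d12 the lines were compared with the day as a block, and the days d0, d2 and d4 in a single fit with line as a block, so that days or lines stand in for replicates and p-values measure the spread between these libraries alone. DESeq2 1.42.0, other scalings and filters and left-out days were alternatives. The edgeR and DESeq2 tests were tested on simulated data with known changes: for the lines over d6 to d12, edgeR recovered 83 of 100 changes of 2-fold and 100 of 100 of 4-fold over 16890 genes, with 1 other call. For d0 to d2 it recovered 42 of 100 and 100 of 100 (18395 genes, 6 other calls) and for d2 to d4 37 of 100 and 100 of 100 (18379 genes, 3 other calls), so that changes of 2-fold were often missed in the simulation of these steps. The simulated counts had the same dispersion for every gene and no differences between days or lines except the planted ones. Changes were planted only in genes above a minimum mean level. These rates therefore do not carry over to members with few reads or a larger spread. Other steps used Python 3.11.15 with pandas 2.3.3, scipy 1.17.1 and matplotlib 3.10.9.

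Values in every library are given for members that reached 10 CPM and were called in a test or on 2 or more of d6 to d12. The members and the gene lists were chosen with earlier results of these data known. Promoter stretches are from RefSeq (GRCm38.p6), and gene positions and lengths are those the authors deposited with the counts (GRCm38). Gene types, and names of genes without a deposited CPM value, came from GENCODE M21, which matched 50462 of the 50686 genes.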

Additional observations from a re-analysis of the deposited data

Results flagged for a closer look

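Sfrp2 and Wnt9a moved in opposite directions in the lines between d4 and d12. Sfrp2 went 0.522-fold (0.381 to 0.711) in shLacZ and 2.1-fold (1.79 to 2.47) in shDIS3L2, and Wnt9a 0.481-fold (0.299 to 0.761) and 2.59-fold (1.79 to 3.78), where the ranges cover counting error only and a fold under 1 is a fall. The difference between the lines was not tested, since each line had a single library on each day.

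Of the genes that match the names of the members but are not in the deposited CPM table, 4 had more reads in a library than the floor of 3. The highest count was 10 for Wnt10a (shLacZ d2), 9 for Wnt1 (shLacZ d12), 9 for Wnt7a (shLacZ d2) and 8 for Wnt10b (shDIS3L2 d6 and d10). Dkk4 had at most 2 reads.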

How the results depend on the processing

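Of the members called over d6 to d12, 13 higher and 3 lower, the calls of lower levels depended on the setting: 6 with DESeq2 size factors in edgeR, 5 without a filter on low counts, 0 without day as a block (2 at an unadjusted p under 0.05), 4 with DESeq2 and the block, and 0 to 5 when a day was left out. The count of higher calls lay between 11 and 15 when a day was left out. Without d8 and d10 together, an alternative chosen after seeing the data, edgeR called 0 higher and 0 lower (10 and 0 at an unadjusted p under 0.05). Over all genes the calls were 3365 higher and 3209 lower, 1895 and 1439 without the block, 1784 and 1665 without d8, and 1695 and 1641 without d10. From d2 to d4 the 17 rises became 26 with the libraries of d2 and d4 alone (3555 and 3655 of all genes, from 2330 and 2165), and the 2 falls became 1 with library totals or without line as a block. Axin2 from d0 to d2 turned from -0.53 to 0.072 with library totals (log2). At a fold of at least 2, the members called higher on d6, d8, d10 and d12 numbered 8, 11, 13 and 10 and those called lower 4, 4, 4 and 1. Of the single values of called members, 413 kept direction and call, 43 lost the call and 1 reversed. A single library per line and day, and a floor of up to 0.418 CPM, limit what the low members can show.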

Other observations

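Markers of other cell types were read in the same test over d6 to d12. Of the 8 genes of the cardiomyocyte-like list, 6 of 7 tested were called higher in shDIS3L2. The list summed to 21.6 to 48 CPM in the shLacZ libraries and 38.9 to 208 CPM in those of shDIS3L2. Its cardiac factor Nkx2-5 stayed at 0.754 CPM or less in all of these libraries. Of 7 endothelial-like markers 2 were called higher, with 97.2 to 233 and 202 to 421 CPM, and of 7 blood-like markers 2 were called higher, with 9.22 to 809 and 37.7 to 1306 CPM. The neural-like list had 1 gene called higher and 4 lower of 9 tested, with 48.3 to 115 and 77.7 to 191 CPM. The part of these cell types in the levels of the Wnt pathway members was not tested.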
